A study of Mus musculus with 16 samples.

Results

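The genes described here are 8 components of the PI3K to AKT signalling pathway: the AKT kinases Akt1 and Akt2, the PI3-kinase catalytic subunits Pik3ca and Pik3cb, the transcription factors Foxo1 and Foxo3, the mTOR complex 1 subunit Rptor and the tuberous sclerosis complex subunit Tsc2. They were taken by symbol from a table of mRNA levels with 41258 entries. Each of the 8 matched 1 Ensembl identifier and 1 entry, and all 8 passed the expression filter that 13172 entries passed. Mouse embryonic stem (ES) cells of 2 genotypes were sequenced in 2 media with 2 libraries per group. The KO groups were Dgcr8-/- cells of the line labelled ES1, at 48 h of differentiation in N2B27 medium with bFGF (basic fibroblast growth factor) and KSR (knockout serum replacement), or in 2iL, a medium with MEK and GSK3 inhibitors and LIF that holds ES cells in the naive state. The WT groups were wild-type cells of the line labelled v65 under the same 2 conditions. The 48 h groups differ from the 2iL groups in both time and medium, and these cannot be told apart. All cells carried the strain label 129/C57BL/6 and the passage label 9-11. Each genotype was 1 line, so the effect of Dgcr8 loss and any other difference between the ES1 and v65 lines cannot be told apart. The study calls the 2 libraries of a group biological replicates, and what was repeated between them is stated neither in the labels nor in the design text. P-values below therefore measure the spread between these libraries. The sample labels name polyA RNA for these libraries, and the design text names total RNA.

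DGCR8 is the RNA-binding partner of the DROSHA nuclease and is needed to make most microRNAs. PI3-kinases are switched on by growth factor and insulin receptors and make the membrane lipid PIP3. PIP3 brings AKT kinases to the membrane, where PDPK1 and mTOR complex 2 activate them. Active AKT phosphorylates FOXO factors, which then leave the nucleus, and phosphorylates TSC2, which relieves the block that the TSC complex puts on RHEB and mTOR complex 1. In mouse ES cells PI3K and AKT activity is known to support self-renewal. These steps act on proteins, and the values here are mRNA levels only.

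Levels are FPKM, fragments per kilobase of transcript scaled to the mapped fragments of the library, as the authors deposited them; no source used here gives read numbers per library, so the depth is unknown. FPKM values summed to between 475271 and 511732 in the KO libraries and between 533445 and 548453 in the WT libraries. All KO sums were thus below all WT sums. Between 11415 and 12030 entries reached 1 FPKM, and the 2 libraries of a group correlated at 0.987 to 0.991 over the tested genes. Dgcr8 itself had 7.84 and 7.80 FPKM in KO cells at 48 h, 9.11 and 9.33 in KO cells in 2iL, 20.7 and 20.9 in WT cells at 48 h, and 18.3 and 19.2 in WT cells in 2iL. All KO libraries were thus below all WT libraries, and Dgcr8 signal remained in KO cells; the labels do not say which part of the gene was deleted. The 8 pluripotency markers all passed the filter and summed to 1342 to 1418 FPKM in KO cells at 48 h, 2027 to 2131 in KO 2iL, 1070 to 1120 in WT cells at 48 h and 1943 to 1978 in WT 2iL. Pou5f1 is the largest part of that sum, and the parts went different ways: at 48 h Nanog had 56.1 and 56.7 FPKM in KO against 5.38 and 5.31 in WT cells, and Lin28a had 17.02 and 15.6 in KO against 237 and 232 in WT cells. The 4 markers of the formative state (Fgf5, Otx2, Pou3f1 and Dnmt3b) summed to 239.6 to 249 FPKM in KO cells at 48 h, 59.3 to 62.9 in KO 2iL, 633 to 646 in WT cells at 48 h and 101 to 111 in WT 2iL. Dnmt3b dominated that sum, and Otx2 was higher in KO than in WT cells at 48 h, with 41.2 and 38.0 against 26.9 and 26.7 FPKM. Of 7 fibroblast and feeder markers, Thy1 and Dcn passed the filter, and the list summed to 18.2 to 18.3 FPKM in KO cells at 48 h, 1.94 to 2.18 in KO 2iL, 11.6 to 12.2 in WT cells at 48 h and 2.55 to 2.75 in WT 2iL. Most of the sum at 48 h was Dcn, with 11.9 and 12.6 FPKM in KO and 2.22 and 1.74 in WT cells, and Thy1. Thy1 had 5.84 and 5.35 FPKM in KO and 9.20 and 9.26 in WT cells at 48 h. The collagens Col1a1, Col1a2 and Col3a1 and the proteoglycan Lum stayed below 0.5 FPKM in every library. Pdgfrb had 0.271 and 0.194 FPKM in KO cells at 48 h against 0.563 and 0.433 in KO 2iL. Of 5 primitive endoderm and 4 trophectoderm markers, 0 and 1 passed the filter. The part of these state and cell type markers in the results below was not tested, and in bulk RNA fewer cells of a type and less RNA per cell cannot be told apart.

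Akt2 was the most abundant of the 8 mRNAs in 3 of the 4 groups, with means of 45.5 FPKM in KO cells at 48 h, 54.3 in KO 2iL and 23.9 in WT 2iL. In WT cells at 48 h Akt1 came first, with 24.8 FPKM against 20.5 for Akt2. Pik3ca was lowest in KO cells at 48 h (7.58 FPKM), KO 2iL (7.26) and WT 2iL (4.24), and Pik3cb was lowest in WT cells at 48 h (3.55). Pik3cb held the second place in KO cells at 48 h, with 20.1 FPKM, and the third in KO 2iL, with 14.9. Neighbours in these orders were separated in both libraries of the group, except Tsc2 and Rptor, which overlapped in WT cells at 48 h and in WT 2iL. In WT 2iL Tsc2 (16.8 and 15.4 FPKM) also overlapped Akt1 (15.3 and 15.5), though they were not neighbours. By their means, the 4 groups thus ordered the same 8 genes in 4 different ways.

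**Figure D1:**
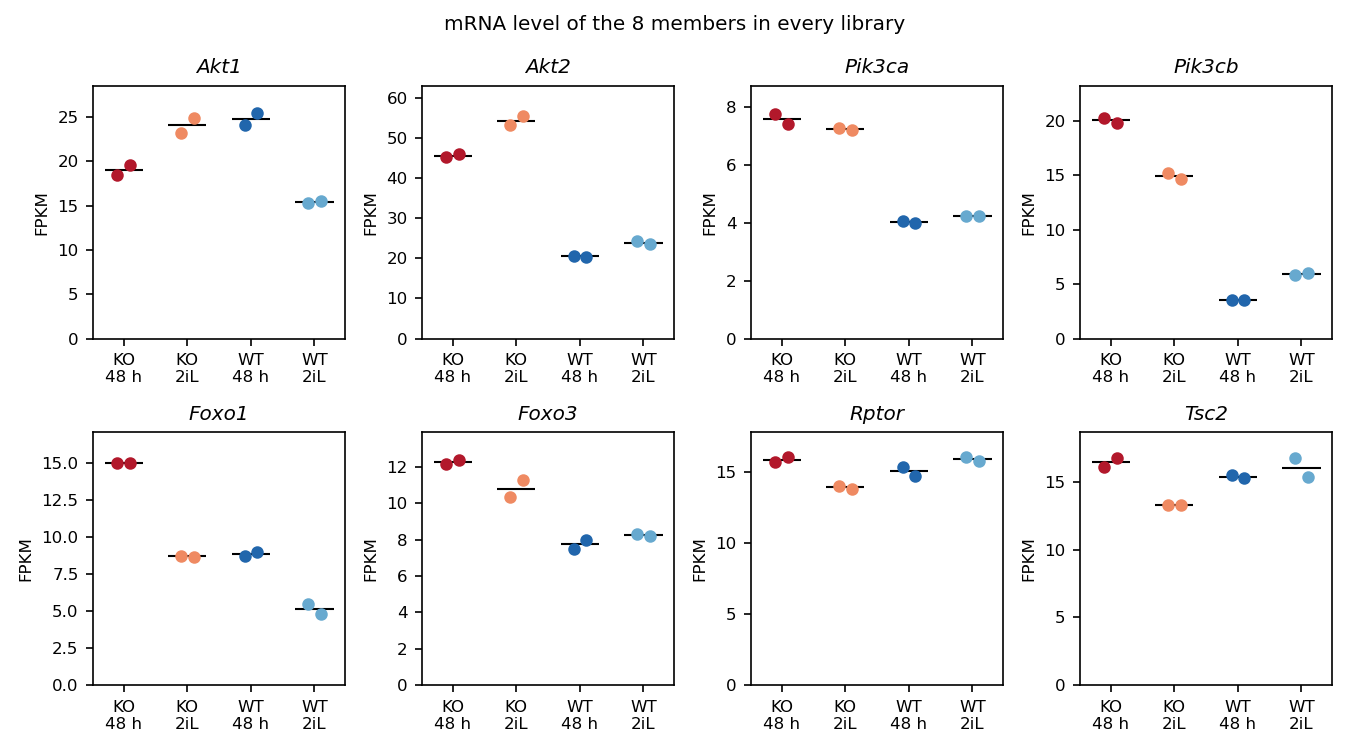
FPKM of each of the 8 genes (vertical axes, linear and starting at 0) in KO cells at 48 h, KO cells in 2iL, WT cells at 48 h and WT cells in 2iL; points are single libraries and bars are means of 2. Akt2, Pik3ca, Pik3cb and Foxo3 lie higher in all 4 KO libraries than in all 4 WT libraries, whereas Akt1 lies higher in KO than in WT in 2iL and lower at 48 h.

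The genotypes were compared first in 2iL. All 8 genes differed between KO and WT cells: 6 were higher in KO (Akt1, Akt2, Pik3ca, Pik3cb, Foxo1 and Foxo3) and 2 were lower (Rptor and Tsc2), at an adjusted p below 0.05 in limma with Benjamini-Hochberg adjustment over all 13172 tested genes. The background of this comparison was high, with 63.4% of all tested genes called (30.6% higher and 32.8% lower), so 8 of 8 does not set these genes apart. The split of the background depended on scaling: 4034 genes were called higher and 4314 lower, against 4647 higher and 3810 lower with median-ratio scaling. The median log2 difference of the 8 genes was 0.64, against −0.02 over all tested genes. All log2 differences here are on the scale of log2(FPKM + 1), which understates the change of low genes. Among the 8 genes in 2iL, the largest were those of Pik3cb (1.20) and Akt2 (1.15).

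At 48 h, 5 of the 8 were higher in KO than in WT cells (Akt2, Pik3ca, Pik3cb, Foxo1 and Foxo3), Akt1 was lower, and Rptor and Tsc2 were not called. Of all tested genes 71.8% were called in this comparison (33.3% higher and 38.5% lower), 4389 higher and 5067 lower, against 4897 higher and 4505 lower with median-ratio scaling. The median log2 difference was 0.65 for the 8 genes and −0.05 for all tested genes. Akt1 was the 1 gene of the 8 called in opposite directions in the 2 media. The libraries of KO and WT cells did not overlap for any of the 8 genes in 2iL or at 48 h, which also held for 80.8% of all tested genes in 2iL and 86.8% at 48 h.

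Differentiation for 48 h was followed by rises of Foxo1, Pik3cb, Tsc2 and Rptor and falls of Akt1 and Akt2 in KO cells, with Pik3ca and Foxo3 not called. That makes 6 of 8 genes, where 48.3% of all tested genes were called, 26.5% higher and 21.8% lower. In WT cells Akt1 and Foxo1 rose, Akt2 and Pik3cb fell, and the other 4 were not called. That makes 4 of 8, where 56.5% of all tested genes were called, 30.9% higher and 25.6% lower. The median log2 change of the 8 genes was 0.17 in KO cells, against 0.03 for all tested genes, and −0.07 in WT cells, against 0.03. The 48 h and 2iL libraries did not overlap for 8 of 8 genes in KO cells and for 7 of 8 in WT cells (all but Tsc2), beside 74.2% and 79.7% of all tested genes.

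The difference between the KO change and the WT change was tested as an interaction in the same fit. It was called for 4 of 8 genes: Pik3cb, Tsc2 and Rptor changed upward in KO relative to WT cells, and Akt1 downward. Over all tested genes 42.8% were called, 21.1% in the upward and 21.7% in the downward direction. Akt1 (−0.98, SE 0.082, limma adjusted p = 1.2e-04) and Pik3cb (1.01, SE 0.081, limma adjusted p = 1.0e-04) had nearly opposite values. Those of Tsc2 (0.35, SE 0.083, limma adjusted p = 0.0134) and Rptor (0.26, SE 0.071, limma adjusted p = 0.0245) were smaller. Foxo1 (0.03, SE 0.101), Akt2 (−0.04, SE 0.062) and Foxo3 (0.25, SE 0.093) had limma adjusted p-values of 0.8487, 0.6521 and 0.0637, and that of Pik3ca was 0.3560.

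**Figure D2:**
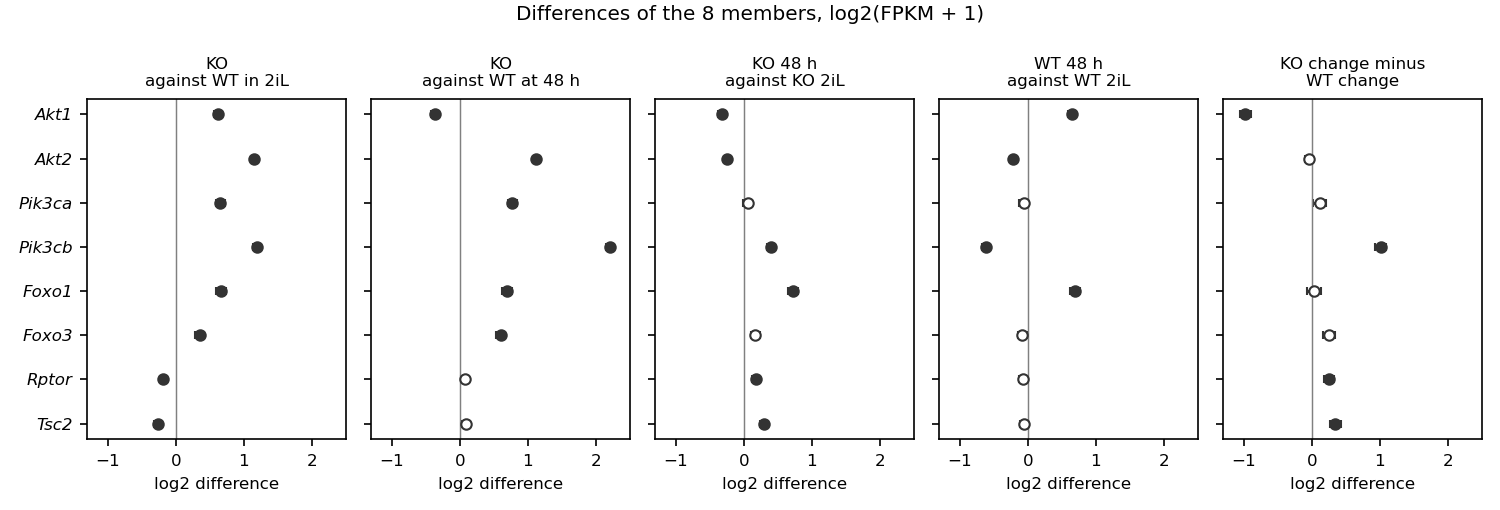
Log2 differences of log2(FPKM + 1) for the 8 genes in the 5 comparisons, with bars of 1 standard error from limma; filled points passed an adjusted p below 0.05. Among filled points, Akt1 changes side between the 2 KO against WT panels and between the 2 panels of the 48 h change, and Pik3cb between the panels of the 48 h change.

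Among the PI3K subunits, Pik3cb, which encodes the catalytic subunit p110β, had the widest span of group means of the 8 genes on the log2 scale, 2.21. It had 20.3 and 19.9 FPKM in KO cells at 48 h, 15.2 and 14.7 in KO 2iL, 3.55 and 3.55 in WT cells at 48 h, and 5.86 and 6.03 in WT 2iL. KO cells thus had 5.65 times the WT mean at 48 h (log2 2.21, SE 0.058, limma adjusted p = 1.8e-07) and 2.51 times in 2iL (log2 1.20, limma adjusted p = 4.8e-06). From 2iL to 48 h it rose in KO cells (log2 0.40, limma adjusted p = 0.0011) and fell in WT cells (log2 −0.61, limma adjusted p = 9.2e-05). Its entry lies on the minus strand at chr9:99038402-99140235 (GRCm38.p6, the build also called mm10) and shares bases with the RefSeq pseudogene Gm2773. Pik3ca, the gene of p110α, was below Pik3cb in all groups but WT cells at 48 h, and its 48 h changes were not called. It had 7.76 and 7.41 FPKM in KO cells at 48 h, 7.30 and 7.23 in KO 2iL, 4.07 and 3.99 in WT cells at 48 h, and 4.25 and 4.24 in WT 2iL. The KO mean was 1.88 times the WT mean at 48 h (log2 0.77, SE 0.065, limma adjusted p = 3.3e-05) and 1.71 times in 2iL (log2 0.66, limma adjusted p = 1.1e-04). Its 48 h change was 0.05 on the log2 scale in KO cells (limma adjusted p = 0.5218) and −0.06 in WT cells (limma adjusted p = 0.4671).

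The third class I catalytic subunit measured, Pik3cd (p110δ), had 8.50 and 9.30 FPKM in KO cells at 48 h, 7.66 and 7.90 in KO 2iL, 7.38 and 7.28 in WT cells at 48 h and 3.21 and 3.54 in WT 2iL. WT cells in 2iL stood apart as low. It rose over 48 h in WT cells (log2 0.93, limma adjusted p = 4.0e-05), and its KO change was lower than its WT change (−0.76, SE 0.106, limma adjusted p = 0.0012), the opposite sign of the Pik3cb value. The fourth subunit, Pik3cg, was listed at or near 0 in every library. Summed over the catalytic subunits, FPKM came to 36.5 and 36.6 in KO cells at 48 h, 30.2 and 29.8 in KO 2iL, 15.0 and 14.8 in WT cells at 48 h, and 13.3 and 13.8 in WT 2iL. Pik3cb made up 55.5% and 54.3% of that sum in KO cells at 48 h, 50.4% and 49.2% in KO 2iL, 23.7% and 23.9% in WT cells at 48 h, and 44.0% and 43.6% in WT 2iL. In WT cells at 48 h the largest share was that of Pik3cd, with 49.2% and 49.1%. The ratio of Pik3cb to Pik3ca was 2.61 and 2.68 in KO cells at 48 h and 0.873 and 0.888 in WT cells at 48 h.

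The regulatory subunits, which hold the catalytic subunits and link them to receptors, did not follow one direction. Pik3r2 (p85β) was lower in KO cells, with 11.7 and 13.9 FPKM in KO against 26.4 and 27.4 in WT cells at 48 h, and 12.4 and 13.3 in KO against 25.4 and 25.5 in WT 2iL (log2 −1.02 and −0.93, limma adjusted p = 2.4e-05 and 5.7e-05). Pik3r3 (p55γ) was higher in KO cells, with 5.07 and 5.01 FPKM in KO against 2.97 and 3.77 in WT cells at 48 h, and 7.35 and 5.91 in KO against 2.60 and 2.60 in WT 2iL (log2 0.47 and 1.08, limma adjusted p = 0.0096 and 2.0e-04). Pik3r1 (p85α) was higher by 0.38 on the log2 scale in both media (limma adjusted p = 0.0139 at 48 h and 0.0170 in 2iL).

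Akt1 showed a crossed pattern. It had 18.5 and 19.6 FPKM in KO cells at 48 h, 23.3 and 25.0 in KO 2iL, 24.1 and 25.4 in WT cells at 48 h, and 15.3 and 15.5 in WT 2iL. It fell in KO cells over 48 h (log2 −0.33, SE 0.058, limma adjusted p = 0.0030) and rose in WT cells (log2 0.65, SE 0.058, limma adjusted p = 6.7e-05). KO cells had 1.57 times the WT mean in 2iL (log2 0.61, limma adjusted p = 8.4e-05) and 0.768 times at 48 h (log2 −0.37, limma adjusted p = 8.9e-04). The KO 2iL and WT 48 h libraries, 23.3 to 25.4 FPKM, lay close together, above both other groups, and they overlapped. Akt1 lies on the minus strand at chr12:112653821-112674884. Because AKT holds FOXO factors out of the nucleus, the RefSeq windows from 250 bases before to 50 after each annotated start of the 8 genes were searched for the FOXO-type motif GTAAACA on both strands. It was found in 1 of 12 windows, that of the first Akt1 start, and in 3.65% of the 32851 mouse windows searched. The E-box CACGTG was found in 0 of 12 windows and in 7.15% of all. The Akt1 match begins 161 bases before the start, in the 250 upstream bases chr12:112674885-112675134 (RefSeq, GRCm38.p6, minus strand), shown 5′ to 3′ along the gene with the motif, which reads TGTTTAC on this strand, in capitals. A match is a description of these letters and not a binding site.
Akt1 upstream: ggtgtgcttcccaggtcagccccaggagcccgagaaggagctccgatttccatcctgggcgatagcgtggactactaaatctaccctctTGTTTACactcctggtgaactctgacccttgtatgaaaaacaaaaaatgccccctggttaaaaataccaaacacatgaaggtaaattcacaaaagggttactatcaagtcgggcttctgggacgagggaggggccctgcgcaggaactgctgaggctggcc

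Akt2, the isoform best known for insulin-driven glucose uptake, separated the genotypes without crossing. It had 45.1 and 45.9 FPKM in KO cells at 48 h, 53.2 and 55.4 in KO 2iL, 20.7 and 20.3 in WT cells at 48 h, and 24.2 and 23.6 in WT 2iL (plus strand, chr7:27591552-27640826). KO cells had 2.22 times the WT mean at 48 h (log2 1.11, SE 0.044, limma adjusted p = 8.6e-07) and 2.27 times in 2iL (log2 1.15, limma adjusted p = 2.1e-06). It fell over 48 h in both genotypes, with a log2 change of −0.25 in KO cells (limma adjusted p = 0.0029) and −0.21 in WT cells (limma adjusted p = 0.0049).

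Akt1 and Akt2 together came to 63.6 and 65.5 FPKM in KO cells at 48 h, 76.4 and 80.4 in KO 2iL, 44.8 and 45.7 in WT cells at 48 h, and 39.5 and 39.1 in WT 2iL. Akt1 took 29.1% and 29.9% of this sum in KO cells at 48 h, 30.5% and 31.1% in KO 2iL, 53.9% and 55.6% in WT cells at 48 h, and 38.8% and 39.7% in WT 2iL. The 4 KO libraries thus had nearly the same make-up, whereas the WT libraries differed between the 2 media. The ratio of Akt2 to Akt1 was 2.44 and 2.35 in KO cells at 48 h, 2.28 and 2.22 in KO 2iL, 0.856 and 0.799 in WT cells at 48 h, and 1.58 and 1.52 in WT 2iL. These ratios were not tested.

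**Figure D3:**
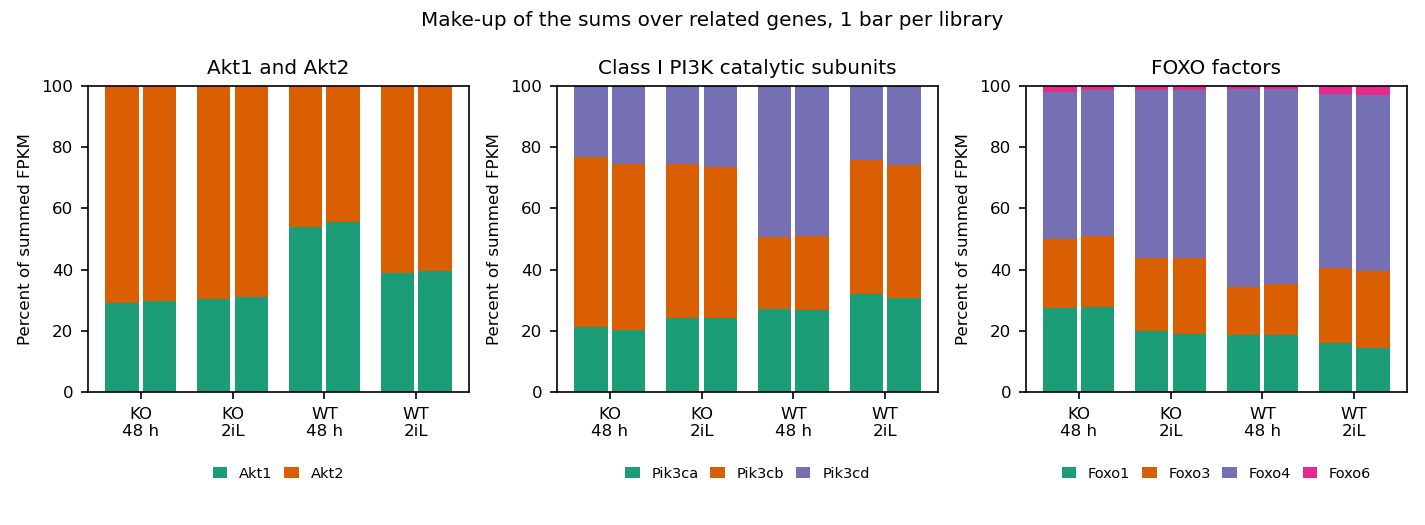
Share of summed FPKM (percent, vertical axes) held by Akt1 and Akt2, by each class I PI3K catalytic subunit and by each FOXO factor, 1 bar per library, for KO 48 h, KO 2iL, WT 48 h and WT 2iL; Pik3cg, at or near 0, is not drawn. Akt1 holds more than Akt2 only in the 2 WT libraries at 48 h (53.9% and 55.6%), where Pik3cb has its lowest shares (23.7% and 23.9%).

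Among the direct regulators of AKT, Tcl1, a small protein that binds AKT and raises its activity, had the largest 48 h change. It had 7.95 and 6.28 FPKM in KO cells at 48 h, 29.7 and 33.8 in KO 2iL, 0.673 and 0.474 in WT cells at 48 h, and 53.1 and 61.6 in WT 2iL. It fell in both genotypes (log2 −5.21 in WT cells, limma adjusted p = 1.7e-07) and was higher in KO than in WT cells at 48 h (2.36, limma adjusted p = 3.8e-06). Trib3, a pseudokinase reported to bind and inhibit AKT, had 5.95 and 6.44 FPKM in KO against 49.2 and 53.9 in WT cells at 48 h, and 6.99 and 7.85 in KO against 24.3 and 27.7 in WT 2iL. It was the most reduced gene of its list in KO cells in both media (log2 −2.87 at 48 h, limma adjusted p = 3.7e-07). Phlpp2, a phosphatase that removes an activating phosphate from AKT, was higher in KO cells in 2iL, with 9.65 and 9.23 against 2.01 and 1.90 FPKM in WT (log2 1.82, limma adjusted p = 2.2e-06). Pdpk1, the kinase that phosphorylates AKT at the membrane, fell over 48 h in KO cells (10.9 and 11.5 FPKM at 48 h against 21.7 and 20.4 in 2iL, log2 −0.85, limma adjusted p = 1.1e-04) and less in WT cells (−0.36, limma adjusted p = 0.0057), with a difference between the changes of −0.49 (limma adjusted p = 0.0096).

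Foxo1 rose from 2iL to 48 h in both genotypes and was higher in KO cells in both media. It had 15.0 and 15.0 FPKM in KO cells at 48 h, 8.75 and 8.66 in KO 2iL, 8.74 and 9.02 in WT cells at 48 h, and 5.47 and 4.77 in WT 2iL (plus strand, chr3:52268337-52350109). The 48 h mean was 1.72 times that in 2iL in KO cells (log2 0.72, SE 0.072, limma adjusted p = 1.8e-04) and 1.73 times in WT cells (0.69, limma adjusted p = 1.5e-04). KO cells had 1.69 times the WT mean at 48 h (0.69, limma adjusted p = 9.1e-05) and 1.70 times in 2iL (0.67, limma adjusted p = 1.6e-04). All 4 differences lay between 0.67 and 0.72 on the log2 scale, and the KO and WT changes differed by 0.03 (SE 0.101). Foxo3 had 12.2 and 12.4 FPKM in KO cells at 48 h, 10.4 and 11.3 in KO 2iL, 7.49 and 7.99 in WT cells at 48 h, and 8.30 and 8.22 in WT 2iL (minus strand, chr10:42181845-42276695). It was higher in KO cells at 48 h (log2 0.60, SE 0.066, limma adjusted p = 1.2e-04) and in 2iL (0.35, limma adjusted p = 0.0026), and its 48 h changes were not called (0.17 in KO cells, limma adjusted p = 0.0693; −0.08 in WT cells, limma adjusted p = 0.3157). The ratio of Foxo3 to Foxo1 was 0.811 and 0.827 in KO cells at 48 h, 1.18 and 1.30 in KO 2iL, 0.858 and 0.885 in WT cells at 48 h, and 1.52 and 1.72 in WT 2iL. Foxo1 was therefore the higher of the pair at 48 h, and Foxo3 in 2iL, in both genotypes.

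Foxo4 was the most abundant FOXO mRNA in every library, with 26.1 and 25.8 FPKM in KO cells at 48 h, 23.8 and 25.1 in KO 2iL, 30.3 and 30.9 in WT cells at 48 h and 19.4 and 18.8 in WT 2iL. It rose over 48 h in WT cells (log2 0.66, limma adjusted p = 2.5e-05), and the KO change was smaller by 0.57 (limma adjusted p = 5.8e-04). It was higher in KO than in WT cells in 2iL (0.34, limma adjusted p = 6.0e-04) and lower at 48 h (−0.23, limma adjusted p = 0.0033), the same signs as Akt1. Foxo6 did not exceed 1.10 FPKM in any library.

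The 2 genes at the mTOR end of the pathway, Rptor and Tsc2, had the smallest spans of group means on the log2 scale, 0.18 and 0.29. Rptor encodes Raptor, which brings substrates to mTOR complex 1, and had 15.7 and 16.0 FPKM in KO cells at 48 h, 14.0 and 13.8 in KO 2iL, 15.3 and 14.7 in WT cells at 48 h, and 16.0 and 15.8 in WT 2iL (plus strand, chr11:119602905-119899591). Tsc2 encodes tuberin, the part of the TSC complex that switches RHEB off, and had 16.2 and 16.8 FPKM in KO cells at 48 h, 13.3 and 13.3 in KO 2iL, 15.5 and 15.3 in WT cells at 48 h, and 16.8 and 15.4 in WT 2iL (minus strand, chr17:24595816-24632676). In both genes the KO 2iL libraries were the lowest, and the other 3 groups lay close together. Rptor rose over 48 h in KO cells by 0.18 on the log2 scale (limma adjusted p = 0.0233) and Tsc2 by 0.29 (limma adjusted p = 0.0054). KO cells in 2iL were below WT cells in 2iL, with log2 differences of −0.18 for Rptor (limma adjusted p = 0.0154) and −0.26 for Tsc2 (limma adjusted p = 0.0067). At 48 h the differences were 0.07 (limma adjusted p = 0.2296) and 0.09 (limma adjusted p = 0.1993). The Rptor calls were weak: the rise in KO cells was not called when any 1 of the 4 KO libraries was left out (limma adjusted p = 0.0507 to 0.1123), and the difference in 2iL was not called without KO 2iL replicate 2 (0.0510), without WT 2iL replicate 1 (0.0617) or with median-ratio scaling of the libraries (0.1143), which also brought both genes to a call at 48 h (0.0295 for Rptor and 0.0269 for Tsc2). The Rptor difference between the changes was not called without KO 48 h replicate 1 (limma adjusted p = 0.0574) or 2 (0.0811), KO 2iL replicate 2 (0.0511), WT 48 h replicate 2 (0.0899) or WT 2iL replicate 1 (0.0630), and that of Tsc2 without KO 48 h replicate 2 (0.0507). Tsc2 shares 699 bases with Pkd1, which had 1.73 to 5.84 FPKM, and no source used here says whether reads were counted by strand.

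Among the partners of these proteins, Tsc1, which stabilises TSC2, was higher in KO cells, with 8.33 and 8.71 FPKM in KO against 5.24 and 5.46 in WT cells at 48 h, and 9.39 and 9.24 in KO against 5.92 and 5.29 in WT 2iL (log2 0.58 and 0.65, limma adjusted p = 2.4e-04 and 2.0e-04). Tbc1d7, the other TSC subunit, was lower in KO cells, with 7.31 and 6.52 FPKM in KO against 10.7 and 10.4 in WT cells at 48 h, and 4.84 and 5.14 in KO against 7.82 and 7.78 in WT 2iL (log2 −0.55 and −0.56, limma adjusted p = 3.7e-04 and 4.5e-04). The ratio of Tsc2 to Tsc1 was 1.94 and 1.93 in KO cells at 48 h, 1.42 and 1.44 in KO 2iL, 2.96 and 2.81 in WT cells at 48 h, and 2.84 and 2.91 in WT 2iL. Rictor, the mTOR complex 2 counterpart of Raptor, was also higher in KO cells, with 9.68 and 10.2 FPKM in KO against 4.72 and 5.01 in WT cells at 48 h, and 9.83 and 9.48 in KO against 4.82 and 4.85 in WT 2iL (log2 0.90 and 0.87, limma adjusted p = 1.6e-05 and 3.1e-05). The ratio of Rptor to Rictor was 1.62 and 1.57 in KO cells at 48 h, 1.42 and 1.45 in KO 2iL, 3.25 and 2.93 in WT cells at 48 h, and 3.33 and 3.26 in WT 2iL. All KO libraries had lower ratios than all WT libraries in both pairs. Mtor, the kinase of both complexes, was higher in KO cells at 48 h (17.97 and 17.0 against 14.8 and 13.9 FPKM, log2 0.27, limma adjusted p = 0.0431) and was not called in the other 4 comparisons.

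The wider pathway was described with 12 lists of 120 genes by role, the 8 included, of which 108 passed the filter. In 2iL 46 were higher and 31 lower in KO than in WT cells (median log2 0.13, against −0.02 for all tested genes), where 30.6% of all tested genes were higher and 32.8% lower. At 48 h 49 were higher and 34 lower (0.12, against −0.05), where 33.3% of all tested genes were higher and 38.5% lower. With median-ratio scaling the list counts became 55 higher and 25 lower in 2iL and 58 higher and 26 lower at 48 h. The counts over all 13172 tested genes moved the same way with that scaling. They became 4647 higher and 3810 lower in 2iL, and 4897 higher and 4505 lower at 48 h. From 2iL to 48 h, 36 rose and 23 fell in KO cells (0.08, against 0.03; 26.5% and 21.8% of all tested genes), and 36 rose and 28 fell in WT cells (0.09, against 0.03; 30.9% and 25.6% of all tested genes). The role counts that follow compare KO with WT cells. Their background is 30.6% of all tested genes higher and 32.8% lower in 2iL, and 33.3% and 38.5% at 48 h. Of the 6 class I subunits tested, 5 were higher and 1 was lower in each medium. Of the 13 AKT kinases and direct regulators, 8 were higher and 4 lower in 2iL (median 0.40), and 6 were higher and 4 lower at 48 h (0.14). Of the 5 TSC and RHEB genes, 1 was higher and 4 were lower in 2iL, and 1 was higher and 3 were lower at 48 h; the lower ones included Rhebl1, a relative of RHEB, with 16.28 and 16.31 against 25.2 and 26.1 FPKM at 48 h (log2 −0.62, limma adjusted p = 1.3e-04).

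Of 11 receptors and adaptors, 4 were higher and 4 lower in KO than in WT cells in 2iL, beside 30.6% and 32.8% of all tested genes. At 48 h 5 were higher and 5 lower, beside 33.3% and 38.5%, so the even division did not set the list apart. Grb10, an adaptor that dampens insulin receptor signalling, had 9.26 and 8.49 FPKM in KO against 66.1 and 73.9 in WT cells at 48 h (log2 −2.85, limma adjusted p = 1.7e-07). Kit, a receptor tyrosine kinase, fell over 48 h in KO cells, to 4.81 and 5.81 FPKM against 38.5 and 37.5 in 2iL (log2 −2.63, limma adjusted p = 2.6e-06), and in WT cells, to a mean of 2.68 ± 0.452 (SD, n = 2) against 23.3 ± 0.390 (SD, n = 2) (−2.73, limma adjusted p = 1.1e-06). Irs2, an adaptor of the insulin and IGF receptors, rose in WT cells, to 7.36 and 7.47 FPKM at 48 h against 1.53 and 1.60 in 2iL (1.71, limma adjusted p = 3.2e-06). It rose less in KO cells (0.52, limma adjusted p = 0.0017). Inpp5d, the lipid phosphatase SHIP1, was higher in KO cells, with 40.7 and 39.8 FPKM in KO against 9.24 and 9.67 in WT cells at 48 h (1.98, limma adjusted p = 5.0e-07).

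Of 15 tested genes that FOXO factors are reported to regulate, 10 were higher and 2 lower in KO than in WT cells in 2iL (median log2 0.59), beside 30.6% and 32.8% of all tested genes. At 48 h 9 were higher and 1 was lower (0.42), beside 33.3% and 38.5%. From 2iL to 48 h 9 rose and 2 fell in KO cells (median 0.34), beside 26.5% and 21.8%, and 5 rose and 4 fell in WT cells (−0.01), beside 30.9% and 25.6%. Sesn3, a stress-induced inhibitor of mTOR complex 1, rose in KO cells to 37.4 and 40.3 FPKM at 48 h, against 12.6 and 12.2 in 2iL (log2 1.57, limma adjusted p = 2.7e-06). It rose less in WT cells (0.63, limma adjusted p = 1.2e-04). Bcl2l11, the gene of the pro-apoptotic protein BIM, rose in WT cells to 16.1 and 14.6 FPKM, against 3.60 and 4.43 in 2iL (1.71, limma adjusted p = 7.6e-06). It rose less in KO cells (1.09, limma adjusted p = 1.1e-04). Txnip, which restrains glucose uptake, was higher in KO cells in 2iL, with 114 and 127 against 36.0 and 43.0 FPKM in WT (1.59, limma adjusted p = 2.0e-05). Klf2, also a factor of naive pluripotency, had 192.5 and 179 FPKM in KO against 13.9 and 13.6 in WT cells at 48 h (3.66, limma adjusted p = 2.8e-08). Klf2 was the largest difference of the list, and Nanog and the pluripotency marker sum were likewise higher in KO than in WT cells at 48 h, and Lin28a lower. Sod2, a mitochondrial antioxidant enzyme, fell in KO cells to 21.3 and 21.1 FPKM, against 51.6 and 55.0 in 2iL (−1.29, limma adjusted p = 1.8e-06). Sod2 also fell in WT cells (−1.46, limma adjusted p = 4.9e-07), and the difference between its changes was not called (limma adjusted p = 0.0719). These genes respond to many other inputs, and the list's counts do not measure FOXO activity.

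Downstream of mTOR complex 1, of 10 output genes 3 were higher and 3 lower in KO cells in 2iL, beside 30.6% and 32.8% of all tested genes, and 4 were higher and 4 lower at 48 h, beside 33.3% and 38.5%. Eif4ebp1, the translation repressor 4E-BP1, had 171 and 162 FPKM in KO against 493 and 503 in WT cells at 48 h (log2 −1.58, limma adjusted p = 1.9e-06). Eef2k, a kinase that slows translation elongation, had 36.5 and 38.2 FPKM in KO against 10.6 and 7.92 in WT cells at 48 h (1.92, limma adjusted p = 6.0e-06). Ulk1, which starts autophagy and is inhibited by mTOR complex 1, fell in WT cells to 5.80 and 6.07 FPKM at 48 h against 38.8 and 35.2 in 2iL (−2.45, limma adjusted p = 2.0e-07), and its change was less negative in KO cells by 1.39 (limma adjusted p = 3.9e-05). Of the 15 amino-acid sensing genes, 3 were higher and 8 lower in KO cells in 2iL (median −0.25) and likewise 3 and 8 at 48 h (−0.13), beside the same shares of all tested genes. Rragb, one of the Rag GTPases that bring mTOR complex 1 to the lysosome, was the most reduced, with 7.88 and 6.70 FPKM in KO against 38.1 and 35.2 in WT cells at 48 h (−2.18, limma adjusted p = 6.0e-06).

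**Figure D4:**
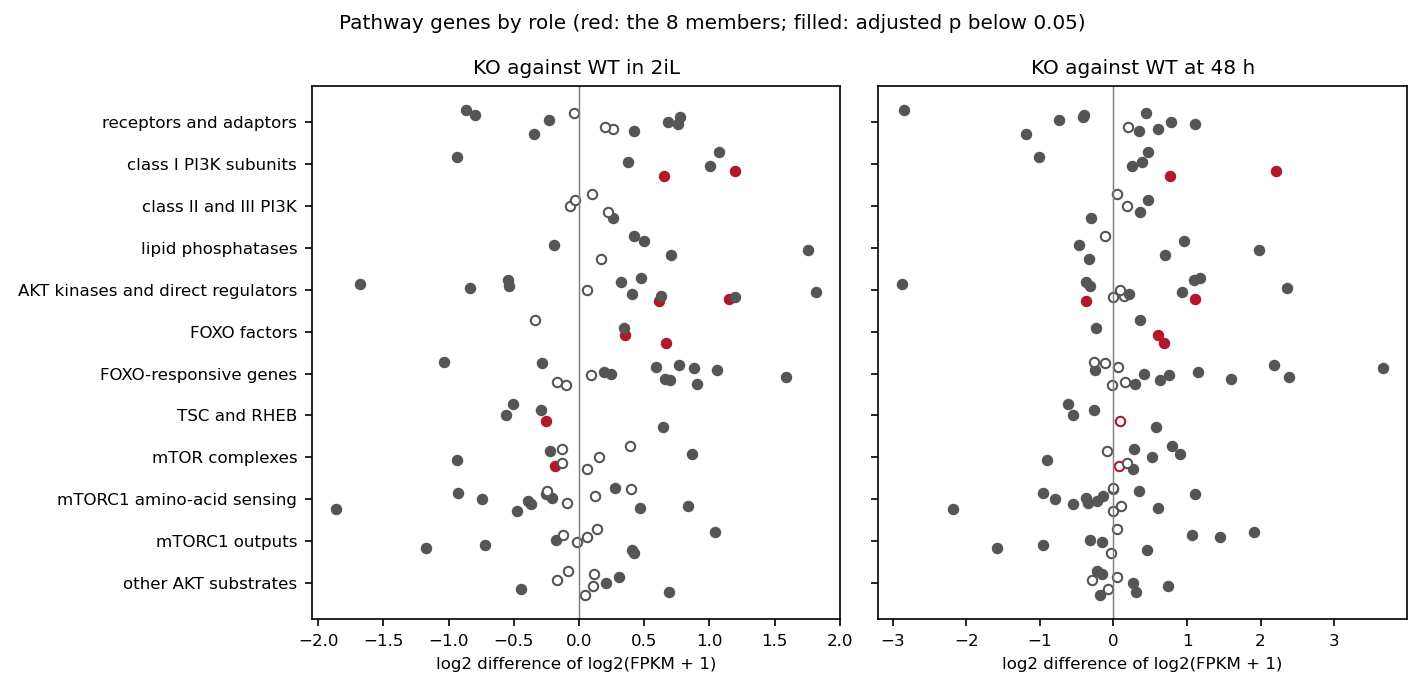
Log2 differences of log2(FPKM + 1) between KO and WT cells in 2iL and at 48 h (horizontal axes, which differ in range) for the 108 tested pathway genes, grouped by role; red points are the 8 genes described here and filled points passed an adjusted p below 0.05 in limma. Points lie on both sides of 0 in most roles, and class I PI3K subunits lie to the right except for 1 gene, Pik3r2.

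Because DGCR8 is needed for microRNA production, the microRNAs with the seed shared by the miR-290 and miR-302 clusters were read in the WT small RNA libraries (2 each at 0, 12, 24 and 48 h after leaving 2iL, where 0 h is 2iL). No KO small RNA was analysed here. These clusters are the best known ES cell microRNAs, and 5 arms with the seed AAGUGCU were matched by name. Any arm of this seed without a name match was not counted. They are shown 5′ to 3′ as in RefSeq (GRCm38.p6), with the seed, bases 2 to 8, in capitals. The first 3 come from the miR-290 cluster on chromosome 7 and the last 2 from the miR-302 cluster on chromosome 3. They differ outside the seed.
mmu-miR-291a-3p: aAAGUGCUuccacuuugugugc
mmu-miR-294-3p: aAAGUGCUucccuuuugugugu
mmu-miR-295-3p: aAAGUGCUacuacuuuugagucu
mmu-miR-302b-3p: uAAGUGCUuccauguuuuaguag
mmu-miR-302d-3p: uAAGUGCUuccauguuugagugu

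The authors deposited a relative signal that sums to 110000 in each small RNA library, and values are given as the percent of that sum. The 3 miR-290 cluster arms together held 8.77% and 9.35% at 0 h, 8.85% and 8.49% at 12 h, 6.91% and 7.16% at 24 h, and 7.02% and 6.06% at 48 h. The 2 miR-302 arms held 1.62% and 1.73% at 0 h, 1.29% and 1.31% at 12 h, 1.69% and 1.92% at 24 h, and 6.95% and 6.11% at 48 h. The share of these 2 miR-302 arms at 48 h was thus several times that in the earlier libraries. The share of the 3 miR-290 cluster arms was lower at 48 h than at 0 h. All 5 arms together held 10.4% and 11.1% at 0 h, 10.1% and 9.80% at 12 h, 8.59% and 9.08% at 24 h, and 14.0% and 12.2% at 48 h. Over the same interval in WT cells Akt1 and Foxo1 rose and Akt2 and Pik3cb fell. No target site in the 8 genes was examined, since no UTR sequence was used here, and no relation between these arms and the 8 mRNAs was tested.

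**Figure D5:**
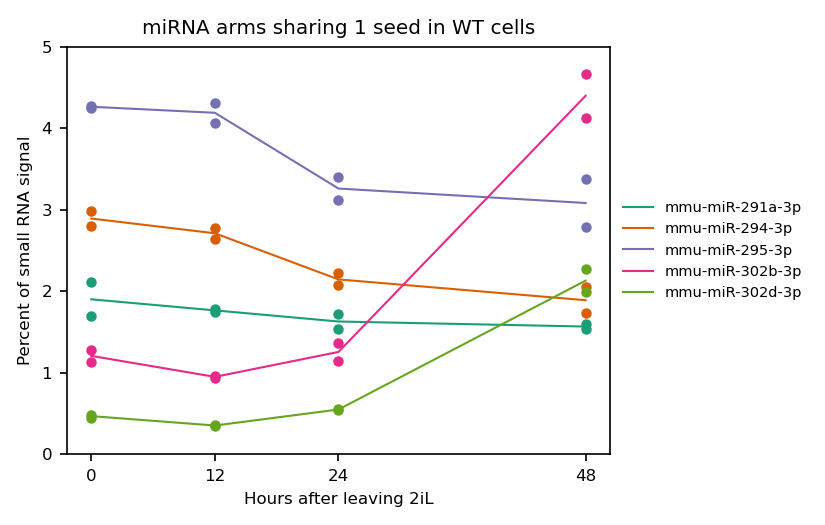
Percent of the small RNA signal (vertical axis) of 5 microRNA arms that share a seed, at 0, 12, 24 and 48 h after WT cells left 2iL (horizontal axis, hours); points are single libraries and lines join the means of 2. mmu-miR-302b-3p and mmu-miR-302d-3p are low up to 24 h and reach 4.67% and 2.28% in the higher library at 48 h.

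The genes whose pattern over the 8 mRNA libraries was most like that of each of the 8 were named by Pearson's r on log2(FPKM + 1), among 9601 tested genes whose group means spanned at least 0.5. The 8 libraries form 4 pairs of replicates, so these values describe a likeness over 4 groups. Akt1 was most like Tbc1d5 (r = 0.990), Mark1 (0.983) and Fam83g (0.975). Akt2 was most like Dazap2, Aox3 and Vgll4 (0.998 each), and Pik3ca most like Gk5, Gbp9 and Bglap3 (0.998 each). Pik3cb was most like Gna14 and Rbl2 (0.999 each) and Stk38l (0.998). Foxo1 was most like Ermp1 (0.996), Bcr (0.995) and Notch2 (0.994), and Foxo3 most like Nbdy (0.995), Gpat3 and Pgd (0.994 each). For Rptor and Tsc2, whose own means spanned only 0.18 and 0.29, the nearest were Hmgxb4 (0.974) and Kif14 (0.982). Tbc1d5, the nearest to Akt1, had 2.22 and 2.34 FPKM in KO cells at 48 h, 3.08 and 3.47 in KO 2iL, 3.29 and 3.46 in WT cells at 48 h, and 1.20 and 1.26 in WT 2iL, the same order of group means as Akt1. In both genes the KO 2iL and WT 48 h libraries overlapped. Ermp1, the nearest to Foxo1, had 44.5 and 44.3 FPKM in KO cells at 48 h, 24.5 and 25.3 in KO 2iL, 25.2 and 27.9 in WT cells at 48 h, and 14.8 and 14.3 in WT 2iL.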

How the data were processed

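mRNA was measured in 8 libraries of 4 groups and small RNA in 8 libraries of WT cells. The authors deposited FPKM values per Ensembl gene; the submitters' processing notes name STAR 2.5.0, Cufflinks 2.2.1 and the build mm10, and per the labels' protocols the libraries were made with dUTP. No source used here names the annotation. The authors deposited small RNA as a relative signal per hairpin arm, used here as shares only. Symbols were found for 40124 of 41258 entries; 56 repeated identifiers were kept apart.

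Entries with at least 1 FPKM in at least 2 libraries (13172) were fitted on log2(FPKM + 1) as 4 group means with limma 3.58.1 in R 4.3.3 (empirical Bayes with an intensity trend, Benjamini-Hochberg adjustment over all tested genes, called below 0.05). The fit had 4 residual and 3.11 prior degrees of freedom, and the median standard error of a difference was 0.0882. It was tested on simulated data. Log fold changes and group summaries were computed from these values.

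The 8 genes, the 12 lists and the tests were chosen with earlier results of these data known. Named genes were all 8, their direct paralogs and partners, and the called genes with the largest rise and fall of each list in a comparison; of these the text gives a selection, and some are not reported here. Pik3cg was named outside this rule, after its values were seen. Likeness named the 3 highest r per gene. Replicate numbers were not taken to pair the libraries, since they are not stated to mark a shared culture or day. The deviations of same-numbered libraries correlated at −0.15 to 0.18 between groups. Alternatives were other pseudocounts, filters and scalings, a replicate block, fits of the compared groups only and leaving out each library. Intervals from counts could not be given for FPKM. RefSeq tables of GRCm38.p6 gave symbols, positions and sequences.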

Additional observations from a re-analysis of the deposited data

Results flagged for a closer look

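The changes from 2iL to 48 h differed between KO and WT cells for 4 of the 8 genes in a limma interaction test (KO change minus WT change, log2, Benjamini-Hochberg adjusted over all tested genes, of which 42.8% were called). The difference was −0.98 for Akt1 (adjusted p = 1.2e-04), with a fall in KO and a rise in WT cells, and 1.01 for Pik3cb (adjusted p = 1.0e-04), with a rise in KO and a fall in WT cells. It was 0.35 for Tsc2 (adjusted p = 0.0134) and 0.26 for Rptor (adjusted p = 0.0245), both of which rose in KO cells and were not called in WT cells. The Rptor difference lost its call in 5 of 15 alternatives (limma, adjusted p up to 0.0899) and its rise in KO cells in 5 of 12 (up to 0.1123), and the Tsc2 difference lost its call in 1 of 15, without KO 48 h replicate 2 (0.0507). Genotype and cell line cannot be told apart in these differences.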

How the results depend on the processing

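Over the alternatives, 489 recomputed differences of single genes kept their direction and their side of the threshold, 15 lost a call, 5 gained one and 3 turned their sign. Those of Akt1, Akt2, Pik3ca and Pik3cb kept their direction and their side of the threshold in every comparison and alternative run. The Foxo1 difference between the KO and WT changes, not called, turned to −0.008 with a pseudocount of 0.1 (limma, adjusted p = 0.9672) and lay between −0.056 (without WT 2iL replicate 1) and 0.111 (without WT 2iL replicate 2) when 1 library was left out. The Tsc2 change in WT cells, not called, lay between −0.116 (without WT 2iL replicate 2) and 0.004 (without WT 2iL replicate 1). Rptor lost its 2iL call in 4 of 12 alternatives, its KO rise in 5 of 12 and its difference between changes in 5 of 15 (highest adjusted p = 0.1143, 0.1123 and 0.0899). With median-ratio scaling Rptor (0.16, adjusted p = 0.0295) and Tsc2 (0.17, adjusted p = 0.0269) were called higher in KO cells at 48 h. The Foxo3 difference between changes was called with median-ratio scaling (adjusted p = 0.0408), with quantile scaling (0.0312) and without KO 2iL replicate 2 (0.0446). The cause of these moves was not tested. Over all genes the interaction gave 5641 calls, and 3612 with a mean of at least 5 FPKM, where fewer genes were tested. Over the alternatives, those without 1 library included, the interaction difference lay between −1.03 and −0.93 for Akt1 and between 0.99 and 1.15 for Pik3cb. It lay between 0.29 and 0.41 for Tsc2 and between 0.23 and 0.28 for Rptor. A fit with the replicate number as a block called 6 of the 8 genes in the KO change, 4 in the WT change, 8 in 2iL, 6 at 48 h and 4 in the interaction, as without the block. Without the block, 48.3%, 56.5%, 63.4%, 71.8% and 42.8% of all tested genes were called in these comparisons, in the same order. Pairing the WT libraries with crossed numbers, an alternative chosen after seeing the data, gave 7244 called genes for the WT change, against 7440. The alternative scalings moved the median of all genes by less than 0.1, but median-ratio scaling turned the share of called genes that were higher in KO cells to 54.9% in 2iL and 52.1% at 48 h, against 48.3% and 46.4%, and for the pathway lists to 68.8% and 69.0%, against 59.7% and 59.0%. Depth is unknown for FPKM, and 2 libraries per group limit the precision.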
